A study of Mus musculus with 20 samples.

Results

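The amino acid transporter solute carriers were examined in Py8119 mammary tumors treated with the Notch4-blocking antibody 6-3-A6. The genes were taken from the count table by symbol, as every gene of the families Slc1, Slc3, Slc6, Slc7, Slc36, Slc38 and Slc43 whose symbol ends in the letter a and a number. This gave 61 of 55866 genes. Because the choice rests on the family, it also takes in carriers of other substrates, such as the monoamine transporters Slc6a2 and Slc6a4, the creatine transporter Slc6a8 and the nucleobase carrier Slc43a3.

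The tumors grew in the mammary fat pad of female C57BL/6J RiboTag mice of the genotype Rpl22HA/HA x Cdh5CreERT2, which all groups shared. In these mice, tamoxifen given at an age of 3 weeks at 75 mg/kg for 5 days lets the Cre of Cdh5-expressing cells, which are endothelial cells (EC), add an HA epitope to Rpl22, a subunit protein of the ribosome. Precipitation with anti-HA (IP) then enriches the mRNA on EC ribosomes over the homogenate of the whole tumor (input). Py8119 cells, a murine mammary carcinoma line, were implanted at 8 weeks, and the animals received the antibody 6-3-A6 at 25 mg/kg, or control IgG of the mouse, for 10 days. Input and IP of 10 tumors, 5 per antibody, gave 20 libraries in 4 groups of 5: control IgG input, control IgG IP, 6-3-A6 input and 6-3-A6 IP. The implanted Py8119 cells do not carry the RiboTag alleles, and their RNA is part of the input. In the GEO labels of the 6-3-A6 samples, title and description disagree on which fraction a sample is, and the title was used. The EC markers below were high in every library titled as IP.

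Amino acids do not cross the plasma membrane without a carrier, and each carrier family takes its own set of substrates. The light chains of the Slc7 family, which exchange large neutral, cationic or cystine substrates, reach the cell surface only when joined to a heavy chain of the Slc3 family. Slc1 carriers take up glutamate or exchange small neutral amino acids, Slc38 carriers take up glutamine and alanine with sodium, Slc36 carriers move small amino acids with protons, and Slc6 carriers use sodium and chloride. In ECs, these proteins feed nitric oxide synthesis with arginine and carry leucine and other essential amino acids between blood and tissue, and leucine and arginine also act on the kinase mTORC1. Several of the genes are known targets of Atf4, the transcription factor that is made when amino acids run short, which binds the CARE element TGATGNAA.

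To show what the promoters of these genes look like, the RefSeq promoter table (GRCm38.p6, 250 bases before to 50 after each start) was searched for TGATGNAA on both strands. The table holds 64 promoters of 43 of the 61 genes. The element was found in 5 of these 64 promoters (7.81%) and in 3.97% of all 32851 promoters, and the genes that hold it are Slc1a4, Slc6a21, Slc7a11 and Slc7a7. Overlapping promoters of Slc7a7 share a match, at -1 from the first listed start and at -243 from the next. This match is counted for both promoters. The sequences of Slc7a11 (chr3:50443604-50443763, minus strand), Slc1a4 (chr11:20332704-20332863, minus strand) and the first listed start of Slc7a7 (chr14:54417935-54418094, minus strand) are shown because these 3 genes carry the element and are among those with results below. Each runs from 150 bases before the start through 10 bases from it, with the CARE matches in capitals.
Slc7a11: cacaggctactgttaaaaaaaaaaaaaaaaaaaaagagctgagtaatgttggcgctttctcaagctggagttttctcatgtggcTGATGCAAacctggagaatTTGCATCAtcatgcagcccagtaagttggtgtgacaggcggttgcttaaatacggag
Slc1a4: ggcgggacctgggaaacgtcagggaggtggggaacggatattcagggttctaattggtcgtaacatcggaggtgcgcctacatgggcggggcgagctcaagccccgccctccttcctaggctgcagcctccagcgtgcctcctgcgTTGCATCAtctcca
Slc7a7: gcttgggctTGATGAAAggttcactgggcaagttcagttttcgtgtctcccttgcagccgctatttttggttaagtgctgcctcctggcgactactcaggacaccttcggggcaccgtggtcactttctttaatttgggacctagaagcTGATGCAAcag
In Slc7a11 the 2 matches begin at -66 and -47, counted from the start at 0, and stand on opposite strands. The match of Slc1a4 begins at -4, and those of Slc7a7 at -141 and -1. The antioxidant element TGACNNNGC, searched in the same way, was found in 17.2% of the members' promoters and in 12.4% of all promoters, the E-box CACGTG in 14.1% and 7.15%, and the ETS motif CCGGAAG in 10.9% and 8.86%. A match in these letters is a description and was not tested as a binding site.

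Library totals lay between 11881214 and 26728205 gene counts. Levels are given as CPM, the counts of a library scaled to a common total with TMM factors. A gene without counts may still have had 0.104 to 0.323 CPM (3 counts), and this limit covers counting error only. The IP held the RNA of the labeled cell type. Summed over 18 EC markers, the level was between 218 and 323 CPM in the 10 inputs and between 1265 and 7280 CPM in the 10 IPs. Macrophage RNA was still present in IP, where 13 macrophage markers summed to between 3371 and 9117 CPM, against 6416 to 15450 CPM in input, so that the IP is enriched for ECs and not free of other cells. One library stood apart. This library, 6-3-A6 input 4, had a TMM scaling factor of 0.665 and a median correlation of 0.888 with the other inputs, while the other 9 inputs had at least 0.952. In these bulk samples, fewer cells of a type and less RNA per cell cannot be told apart.

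Between IP and input, most of the measured transporters were lower in the endothelial fraction, and 3 were higher among those with enough counts. All 61 genes were looked up, and 30 had enough counts for the edgeR quasi-likelihood test over 20 libraries, and 20 of these 30 (66.7%) were called at an adjusted p under 0.05, where 41.2% of all 13582 genes tested were called. The 3 higher genes were Slc43a3, Slc43a1 and Slc7a7 (10.0% of the members, against 19.8% of all genes). The 17 lower genes (56.7% against 21.4%) included the heavy chain Slc3a2, most light chains, and all 5 tested Slc6 genes. Without the tumor of 6-3-A6 input 4, 17 members were called, and Slc7a1, Slc7a2 and Slc38a9 were lost (56.7% of the members, against 42.7% of all genes). Of the 30 log2 fold changes, 24 (80.0%) were below 0, which was so for 53.5% of all genes, and their median was -0.49 against -0.05 over all genes. The IPs and inputs did not overlap in 2 of 30 genes, Slc6a6 and Slc6a15 (6.67%, against 4.97% of all genes).

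**Figure D1:**
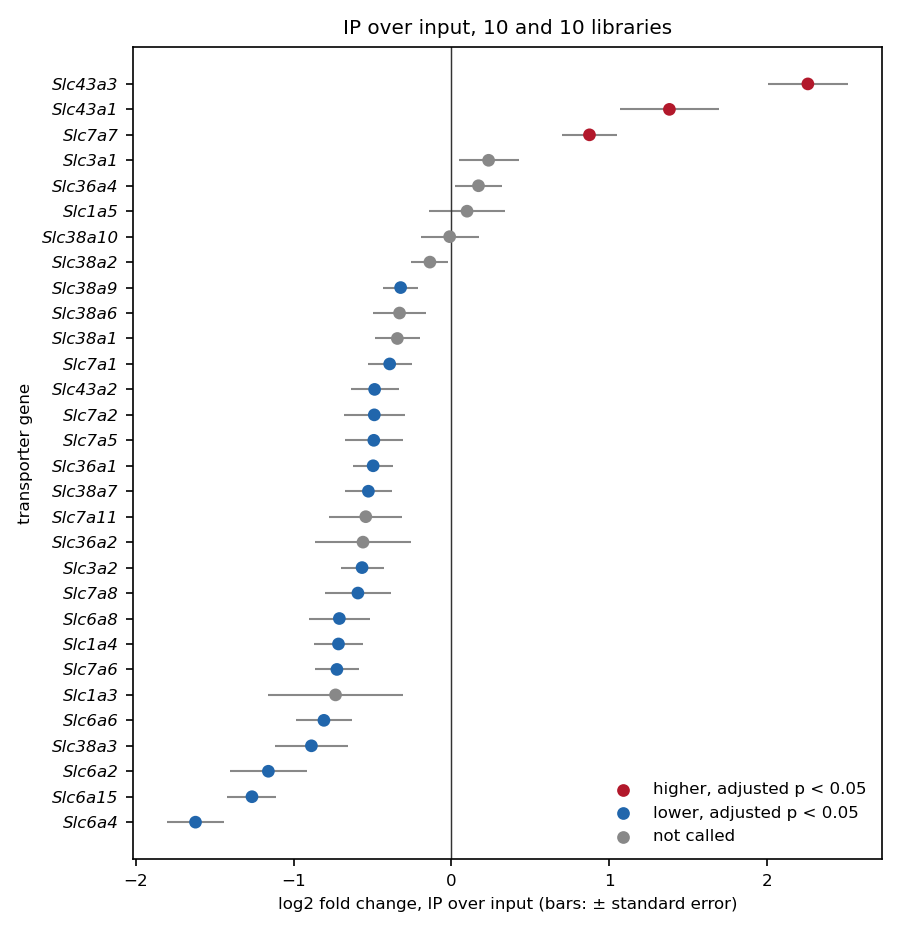
Log2 fold change of IP over input for the 30 tested transporter genes, with bars of 1 standard error; red points were called higher, blue points called lower and gray points not called (edgeR, adjusted p threshold 0.05). Slc43a3 lies highest at 2.26 and Slc6a4 lowest at -1.62.

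Slc43a3, a carrier of purine nucleobases and not of amino acids, was the member with the highest ratio. Its level lay between 6.25 and 18.5 CPM in input (median 10.1) and between 15.99 and 72.1 CPM in IP (median 56.7). The lowest IP value, in 6-3-A6 IP 2, fell below the highest input value, in 6-3-A6 input 5, so that the groups overlap, but IP exceeded input in each of the 10 tumors. The log2 fold change was 2.26 (standard error, SE, 0.25, edgeR adjusted p = 3.81e-07).

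Slc43a1 (LAT3), a facilitated carrier of leucine and other large neutral amino acids, is its neighbor on chromosome 2, and 73.0 kb separate both genes (Slc43a1 at 84669194 to 84693938 and Slc43a3 at 84766923 to 84788853, GRCm39). It was measured at a low level, between 0.396 and 1.399 CPM in input (median 0.921) and between 0.984 and 4.56 CPM in IP (median 2.41). IP was above input in 10 of 10 tumors, and the log2 fold change was 1.38 (SE 0.31, edgeR adjusted p = 0.00145).

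Slc7a7 (y+LAT1), a light chain that exports cationic amino acids in exchange for neutral ones, lay between 11.8 and 27.6 CPM in input (median 17.7) and between 15.99 and 46.6 CPM in IP (median 34.1). It too was higher in IP in all 10 tumors, with a log2 fold change of 0.88 (SE 0.18, edgeR adjusted p = 0.000557). Slc7a8, which lies 304 kb from it on chromosome 14, went the other way, with a log2 fold change of -0.59.

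**Figure D2:**
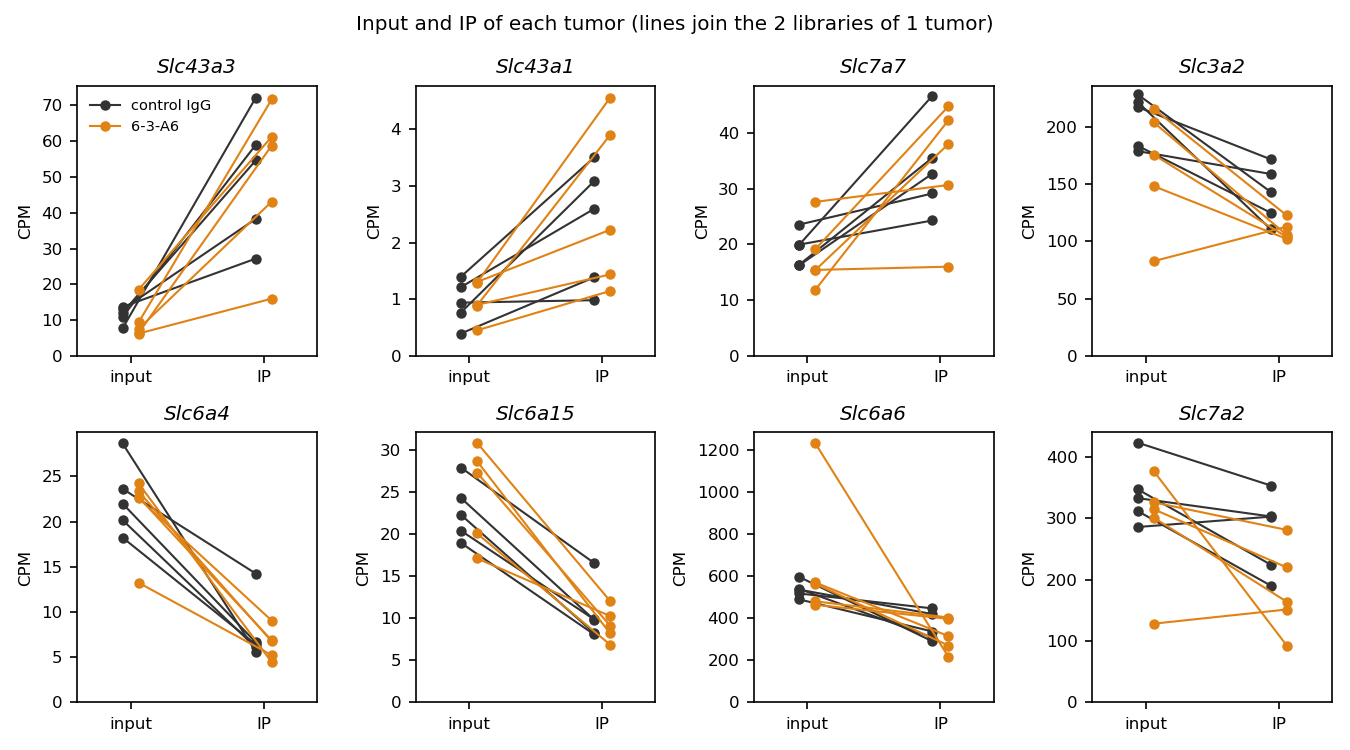
CPM of 8 transporters in input and IP; each line joins both libraries of 1 tumor (control IgG black, 6-3-A6 orange, 5 tumors each). The lines of Slc43a3, Slc43a1 and Slc7a7 rise in all 10 tumors, those of Slc6a4, Slc6a15 and Slc6a6 fall in all 10, and 6-3-A6 input 4 stands out at 1232 CPM of Slc6a6.

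Among the heavy chains, Slc3a2 (CD98), the partner of most light chains named here, was lower in IP. It lay between 82.8 and 229 CPM in input (median 194) and between 102 and 172 CPM in IP (median 118). The lowest of all 20 values was that of 6-3-A6 input 4, whose tumor was the only one of 10 with more Slc3a2 in IP than in input. The log2 fold change was -0.57 (SE 0.14, edgeR adjusted p = 0.00238). Slc3a1, the heavy chain known from kidney and intestine, was present at 2.47 to 9.17 CPM with a log2 fold change of 0.24 (edgeR adjusted p = 0.328).

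Of the 4 carriers of large neutral amino acids, 3 were lower in IP and 1, Slc43a1, was higher. Slc7a5 (LAT1), the main leucine exchanger of proliferating cells, lay between 62.5 and 159 CPM in input (median 96.6) and between 40.6 and 129 CPM in IP (median 72.9), so that the groups overlap widely. Its log2 fold change was -0.49 (edgeR adjusted p = 0.0377), and it was called in 8 of 20 fits that left out 1 library. The call held without control IgG input 3, control IgG IP 1, 2 or 4, 6-3-A6 input 3 or 4 and 6-3-A6 IP 4 or 5, and was lost without any of the other libraries, where edgeR gave adjusted p values up to 0.0649. Slc7a8 (LAT2) had a log2 fold change of -0.59 (edgeR adjusted p = 0.0292), and Slc43a2 (LAT4) one of -0.49 (edgeR adjusted p = 0.0143). The call of Slc7a8 was lost without 6-3-A6 input 5 (edgeR adjusted p = 0.0754) and without 6-3-A6 IP 1, 3 or 4 (0.05035, 0.0540 and 0.05445).

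Of the carriers of cationic amino acids, 3 were lower in IP and 1, Slc7a7, was higher. Slc7a1 (CAT1), the housekeeping arginine carrier, lay between 78.9 and 180.0 CPM in input (median 127) and between 62.6 and 135 CPM in IP (median 94.7). It was lower in IP than in input in each of the 10 tumors, although the groups overlap, and its log2 fold change was -0.39 (edgeR adjusted p = 0.0296). The call was lost without control IgG input 4, 6-3-A6 input 4, 6-3-A6 IP 1 or 6-3-A6 IP 3, where edgeR gave adjusted p values between 0.0538 and 0.0589. Slc7a2 (CAT2), the arginine carrier known from activated macrophages, reached 128 to 423 CPM in input and 92.7 to 353 CPM in IP, with a log2 fold change of -0.49 (edgeR adjusted p = 0.0477) that was called in 5 of 20 fits without 1 library. These were the fits without control IgG input 1 or 2, control IgG IP 5, 6-3-A6 input 5 or 6-3-A6 IP 2, and the call was lost without any of the other libraries (edgeR adjusted p up to 0.0973). Slc7a6 (y+LAT2) was lower in all 10 tumors at a log2 fold change of -0.73 (SE 0.14, edgeR adjusted p = 0.000319).

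Slc7a11 (xCT), the cystine and glutamate exchanger that supplies cysteine for glutathione, lay between 13.9 and 56.6 CPM in input (median 25.9) and between 12.7 and 43.9 CPM in IP (median 17.1). It was lower in IP in 8 of 10 tumors, and its log2 fold change of -0.54 missed the threshold (edgeR adjusted p = 0.0653). It passed in 3 of 20 fits, without control IgG input 1, control IgG IP 5 or 6-3-A6 input 5. With the tumor as a block in the model, which compares both libraries of each tumor, it was called (log2 fold change -0.50, edgeR adjusted p = 0.0113), as were Slc1a3 (-0.77), Slc38a1 (-0.33) and Slc36a2 (-0.61). All 20 genes called without the block were also called with it, which gave 24 of 30 (80.0%), while the share of all genes called rose from 41.2% to 52.4%.

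The small neutral exchangers differed. Slc1a4 (ASCT1) was lower in IP in each of the 10 tumors, at 24.1 to 48.0 CPM in input (median 37.7) and 12.2 to 34.4 CPM in IP (median 23.5), with a log2 fold change of -0.72 (SE 0.16, edgeR adjusted p = 0.00105). Slc1a5 (ASCT2), a glutamine exchanger, had 20.4 to 68.0 CPM in input and 23.1 to 93.3 CPM in IP, and its log2 fold change was 0.10 (SE 0.24, edgeR adjusted p = 0.759). The glutamate carrier Slc1a3 was near the lower end of what was measured, at 0.423 to 7.31 CPM.

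Of 7 tested Slc38 genes, 3 were lower in IP and none was higher. Slc38a3, a glutamine carrier known from liver and brain, had a log2 fold change of -0.89 (edgeR adjusted p = 0.00408), Slc38a7, a glutamine carrier of lysosomes, -0.53 (edgeR adjusted p = 0.00831) and Slc38a9, the lysosomal arginine sensor of mTORC1, -0.32 (edgeR adjusted p = 0.0273). The call of Slc38a9 was lost without control IgG input 5, control IgG IP 3 or 4, or 6-3-A6 IP 2 (edgeR adjusted p between 0.05003 and 0.0579). Slc38a2 and Slc38a1, sodium-coupled carriers of glutamine and alanine at the plasma membrane, had edgeR log2 fold changes of -0.14 (adjusted p = 0.3615) and -0.34 (adjusted p = 0.0550). Slc38a1 was called without control IgG input 3, control IgG IP 5 or 6-3-A6 input 5. Slc38a10 had a log2 fold change of -0.01, Slc38a6 one of -0.33, and neither was called. The lysosomal proton-coupled carrier Slc36a1 was lower in IP in all 10 tumors at -0.50 (edgeR adjusted p = 0.00423), while Slc36a4 had a log2 fold change of 0.17 (edgeR adjusted p = 0.372).

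The 5 tested Slc6 genes were each lower in IP. Slc6a4, the serotonin transporter, had the lowest ratio of all members, with 13.2 to 28.6 CPM in input (median 22.65) and 4.45 to 14.25 CPM in IP (median 6.53). Control IgG IP 4 at 14.25 CPM lay above 6-3-A6 input 5 at 13.2 CPM, and the other 9 IPs lay below every input. The log2 fold change was -1.62 (SE 0.18, edgeR adjusted p = 3.02e-07).

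Slc6a15, a carrier of branched-chain amino acids and proline known from neurons, lay between 17.1 and 30.9 CPM in input (median 23.3) and between 6.88 and 16.6 CPM in IP (median 9.49), with no overlap. Its log2 fold change was -1.265 (SE 0.16, edgeR adjusted p = 1.43e-06). Slc6a6, the taurine carrier, was the member with the most counts, at 464 to 1232 CPM in input (median 538) and 217 to 447 CPM in IP (median 326). The IPs and inputs did not overlap here either, and without the tumor of 6-3-A6 input 4, which gave the value of 1232 CPM, the other 9 inputs lay between 464 and 596 CPM. Its log2 fold change was -0.81 (SE 0.18, edgeR adjusted p = 0.00108). Slc6a8, the creatine carrier, had a log2 fold change of -0.71 (edgeR adjusted p = 0.006085), and Slc6a2, the noradrenaline carrier, had one of -1.16 (edgeR adjusted p = 0.000793) at levels of 0.419 to 3.42 CPM.

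Beside these differences, 18 of 18 EC markers were called higher in IP (median 4.56 on the log2 scale), and 9 of 13 macrophage markers, 4 of 10 fibroblast markers, 3 of 6 lymphoid markers and 2 of 6 epithelial markers were called lower. The same held for 1 of 5 neutrophil and 2 of 3 muscle markers, the 8 mural markers had 1 call in each direction, and none of 4 adipocyte or 4 erythroid markers was called. The remaining listed markers of these types were not tested. The log2 fold changes of the macrophage markers lay between -1.15 and 0.03 with a median of -0.65. The highest ratio among the transporters, 2.26, was below the lowest among the EC markers, 3.16. The part of these cell types in the transporters' levels was not tested.

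Per kilobase of exon, Slc6a6, Slc3a2, Slc38a2, Slc7a2 and Slc7a5 stood highest in IP, with mean levels of 40.3, 35.6, 25.0, 25.0 and 21.1 CPM per kb. In input the 5 highest were the same genes, at 70.8 for Slc6a6, 52.7 for Slc3a2, 34.45 for Slc7a2, 30.0 for Slc7a5 and 27.4 for Slc38a2. Slc43a3 moved from 2.36 CPM per kb in input to 11.2 in IP, where it stood directly above Slc7a7 at 10.25 and Slc1a5 at 10.2. At the lower end, Slc43a1 reached 0.434 CPM per kb in IP and Slc6a2 0.163. Exon lengths came from GENCODE M21, and the counts include introns, so that reads from introns add to these levels.

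**Figure D3:**
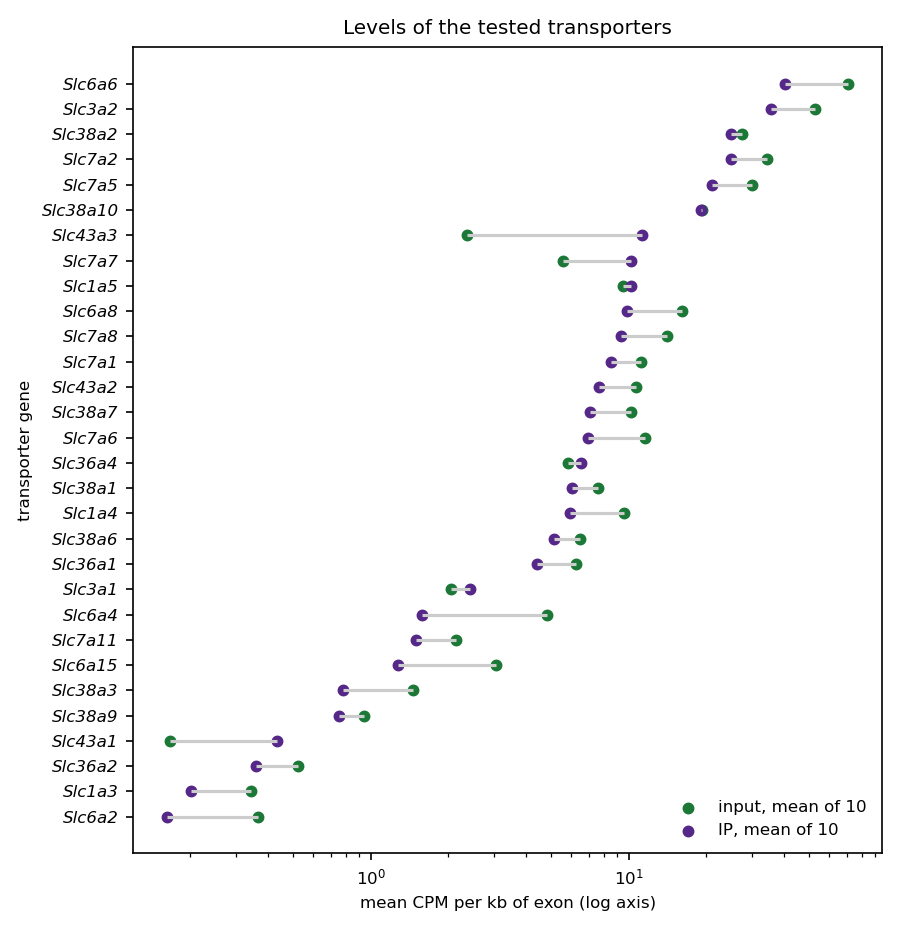
Mean level in input (green) and IP (purple) of the 30 tested transporters, in CPM per kb of exon on a log axis, each a mean of 10 libraries. Slc6a6 stands highest in both fractions, and Slc43a3 shows the widest step upward, from 2.36 to 11.2.

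Of the 31 members without a test of IP against input, 2 (Slc6a9 and Slc6a18) had no counts in any library. The span of Slc6a9, a glycine carrier, is covered to 98.05% by other genes of the table. The remaining ones had at most 2.26 CPM in any library, a level reached by Slc1a1 and Slc1a2 in an input. Summed over all 31 genes they gave 22.15 CPM in 6-3-A6 input 4 and between 1.63 and 5.00 CPM in each of the other 19 libraries. Slc38a4 passed the filter in the comparisons among IPs and had 0.0851 to 2.04 CPM. Fits that did not apply the filter of edgeR called a few of these genes on few counts. DESeq2 and edgeR without the filter both called the dopamine transporter Slc6a3 higher in IP, with 52 counts in the 10 IPs and 10 in the 10 inputs, and the neutral amino acid carrier Slc6a19 lower, with 13 and 42 counts. DESeq2 also called Slc1a2 lower (36 and 70 counts, 21 of them in 6-3-A6 input 4), and edgeR without the filter Slc7a9 lower (0 and 6 counts). The group includes the other glutamate carriers, the carriers Slc6a11 and Slc6a13, and the glycine carrier Slc6a5.

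In the comparison of 6-3-A6 with control IgG, the IP libraries that the study kept were examined first, namely replicates 2, 4 and 5 of control IgG and replicates 1, 3 and 4 of 6-3-A6. According to its methods, the other 4 were removed as outliers after a principal component analysis of these IPs, which left the 2 treatments further apart. The choice of libraries thus rests on the values compared here, the p-values of the 6 libraries do not allow for it, and their calls are given as a description of these libraries. The cystine carrier Slc7a11 and the arginine carrier Slc7a1 were lower with 6-3-A6 and were called, and none was called higher. These are 2 of 31 members tested (6.45%), against 4.61% of all 13999 genes called and 2.04% called lower. DESeq2 called 7 members in the same libraries, adding Slc1a4, Slc7a8, Slc7a2, Slc38a1 and Slc38a3, all lower. These were 22.6% of the 31 members to which DESeq2 gave an adjusted p, against 8.14% of 14565 genes called and 3.64% called lower. An unadjusted p under 0.05 was found for 13 of 31 members (41.9%, against 19.5% of all genes). The 3 and 3 libraries did not overlap in 16 of 31 members (51.6%, against 24.3% of all genes), of which 14 were lower and Slc7a7 and Slc38a4 higher. Of 31 log2 fold changes, 26 (83.9%) were below 0 (54.9% of all genes), and their median was -0.44 against -0.05.

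Slc7a11 was at 25.5, 31.0 and 43.9 CPM in the kept control IgG IPs and at 15.1, 17.7 and 14.2 CPM in the kept 6-3-A6 IPs. All 3 control values lay above all 3 values with 6-3-A6, and the log2 fold change was -1.13 (SE 0.23, edgeR adjusted p = 0.0269). The control IgG IPs left out by the study, 1 and 3, were at 16.6 and 13.9 CPM, within the range of the 6-3-A6 IPs. The 6-3-A6 IPs left out, 2 and 5, were at 18.0 and 12.7 CPM. The call of Slc7a11 was lost without control IgG IP 4 (edgeR adjusted p = 0.0548) and without 6-3-A6 IP 1, 3 or 4 (0.0749, 0.0856 and 0.0881).

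Slc7a1 showed a similar layout. The kept control IgG IPs had 132, 135 and 118.5 CPM (replicates 2, 4 and 5), and the kept 6-3-A6 IPs had 69.5, 62.6 and 88.7 CPM (replicates 1, 3 and 4). The groups did not overlap, and the log2 fold change was -0.83 (SE 0.20, edgeR adjusted p = 0.0405). Of the libraries that were left out, control IgG IP 1 had 125 CPM and control IgG IP 3 had 65.4 CPM, the latter among the values with 6-3-A6. The 6-3-A6 IPs 2 and 5, also left out, had 86.9 and 101 CPM. The call of Slc7a1 was kept only without control IgG IP 5, and the other 5 fits without 1 library, which left out control IgG IP 2 or 4 or 6-3-A6 IP 1, 3 or 4, gave edgeR adjusted p values between 0.0531 and 0.231.

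Close to the threshold stood Slc1a4 with 31.05, 33.3 and 27.8 CPM in the kept control IgG IPs and 12.2, 16.5 and 21.5 CPM in the kept 6-3-A6 IPs, which do not overlap (log2 fold change -0.90, edgeR adjusted p = 0.0507). The glutamine carrier Slc38a1 had 130, 139 and 138 CPM against 74.9, 84.2 and 95.1 CPM (log2 fold change -0.70, edgeR adjusted p = 0.0548). In edgeR, Slc7a8 (-0.73, adjusted p = 0.0567), Slc38a3 (-0.97, adjusted p = 0.0603) and Slc7a2 (-1.04, adjusted p = 0.0687) were also without overlap and were not called. Slc3a2 had a log2 fold change of -0.43 (edgeR adjusted p = 0.2205), and Slc7a5 one of -0.64 (edgeR adjusted p = 0.190) with overlap, since 6-3-A6 IP 4 at 92.6 CPM lay above control IgG IP 5 at 85.2 CPM.

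The 3 genes that were higher in IP than in input had positive values in this comparison. Slc7a7 was at 32.7, 24.3 and 29.1 CPM with control IgG and at 37.96, 44.7 and 42.2 CPM with 6-3-A6 (log2 fold change 0.51, edgeR adjusted p = 0.1565), without overlap. Slc43a3 had 54.6, 27.2 and 38.3 CPM against 58.75, 43.1 and 71.7 CPM (0.50, edgeR adjusted p = 0.3455), and Slc43a1 a log2 fold change of 0.17 (edgeR adjusted p = 0.875). None of the 3 was called.

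The kept libraries also differed in the levels of cell type markers. The 18 EC markers summed to 1589 to 4990 CPM in the 3 kept control IgG IPs and to 5148 to 6497 CPM in the 3 kept 6-3-A6 IPs, and 7 of 18 were called higher. The 13 macrophage markers summed to 6716 to 7788 CPM with control IgG and to 3371 to 3991 CPM with 6-3-A6, and 6 of 13 were called lower, as were 2 of 10 fibroblast markers and 2 of 6 epithelial markers. Of 4 tested erythroid markers, 3 were called higher, and the 8 mural markers had 1 call in each direction. No neutrophil, lymphoid, adipocyte or muscle marker was called. The part of these markers' cells in the values of the transporters was not tested. The control IgG IPs left out, 1 and 3, had EC scores of 1.93 and 2.88, close to the 2.37 to 2.54 of the kept 6-3-A6 IPs, while the kept control IgG IPs had -0.38 to 0.84. The 6-3-A6 IPs left out, 2 and 5, had scores of -0.13 and 1.23. The score is the mean log2 CPM of the EC markers less that of the macrophage, fibroblast and epithelial markers. The score thus separated the kept groups without overlap, and in these 6 libraries it and the treatment cannot be told apart, so that a fit with both tests neither. With this score as a covariate, 0 members and 0 of all genes were called, Slc7a11 had a log2 fold change of -1.30 (edgeR adjusted p = 0.838) and Slc7a1 one of -0.64 (edgeR adjusted p = 0.858), and the fold changes of 8 members changed sign, Slc43a3, Slc43a1 and Slc7a7 among them.

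**Figure D4:**
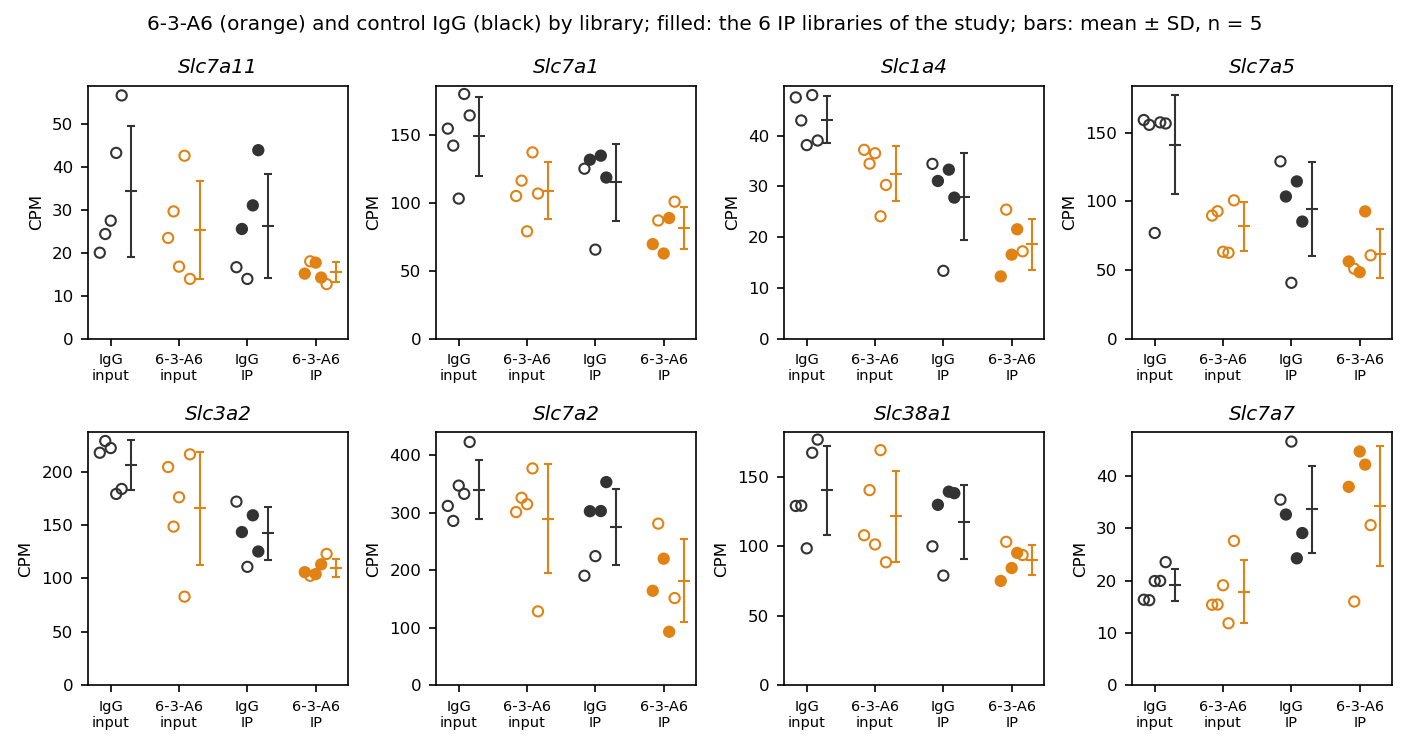
CPM of 8 transporters by library in the 4 groups (control IgG black, 6-3-A6 orange), with the mean ± SD of 5 libraries beside the points; filled points are the 6 IP libraries of the study. In Slc7a11 the control IgG IPs that were left out, at 16.6 and 13.9 CPM, lie among the 6-3-A6 IPs, and Slc1a4 is the gene whose inputs do not overlap.

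Over all 10 IP libraries, 0 of 31 members were called, as were 0 (0.0%) of all 13602 genes by edgeR, and 0 by DESeq2. An unadjusted p under 0.05 was reached by 5 members, Slc7a11, Slc7a1, Slc1a4, Slc7a5 and Slc3a2 (16.1%, against 2.15% of all genes), and all 5 were lower with 6-3-A6. The groups overlapped in each of the 31 members (0.206% of all genes did not overlap). Values below 0 were found for 27 of 31 members (87.1%, against 48.3% of all genes), and the median log2 fold change was -0.23 against 0.01 over all genes. The 6 kept libraries are part of these 10, so that both comparisons share samples.

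Slc7a11 was at 16.6, 25.5, 13.9, 31.0 and 43.9 CPM in the control IgG IPs and at 15.1, 18.0, 17.7, 14.2 and 12.7 CPM in the 6-3-A6 IPs. Control IgG varied more than 6-3-A6 here, with means of 26.2 ± 12.0 and 15.5 ± 2.28 CPM (SD, n = 5 each). The log2 fold change was -0.77 (SE 0.29, edgeR unadjusted p = 0.0192, adjusted p = 1.0), and the unadjusted p was under 0.05 in 9 of 10 fits that left out 1 library. For the 4 genes that follow this was so in 2 to 5 of 10 fits.

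Slc7a1 was at 125, 132, 65.4, 135 and 118.5 CPM with control IgG and at 69.5, 86.9, 62.6, 88.7 and 101 CPM with 6-3-A6. The overlap came from control IgG IP 3 alone, and the other 4 control values lay above all 5 values with 6-3-A6. The log2 fold change was -0.50 (SE 0.22, edgeR unadjusted p = 0.0379).

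Slc1a4 had 34.4, 31.05, 13.3, 33.3 and 27.8 CPM in the control IgG IPs and 12.2, 25.4, 16.5, 21.5 and 17.2 CPM in the 6-3-A6 IPs. Here too only control IgG IP 3 fell within the 6-3-A6 values, and the log2 fold change was -0.60 (SE 0.27, edgeR unadjusted p = 0.0445). Slc7a5, with 129, 103, 40.6, 114 and 85.2 CPM against 56.1, 50.9, 48.3, 92.6 and 60.6 CPM, had a log2 fold change of -0.62 (edgeR unadjusted p = 0.0473), and control IgG IP 3 was the lowest of the 10. For Slc3a2 the values were 172, 143, 111, 159 and 125 CPM against 106, 102, 104, 113 and 123 CPM (log2 fold change -0.38, edgeR unadjusted p = 0.0293). Control IgG IP 3 had the highest EC score of the 10 IPs, 2.88, while control IgG IP 1, with a score of 1.93, had the highest values of the 10 for Slc1a4, Slc7a5 and Slc3a2. All 10 IPs were also fitted with the EC score as a covariate. The log2 fold change was then -0.55 for Slc7a11, -0.37 for Slc7a1, -0.46 for Slc1a4, -0.55 for Slc7a5 and -0.35 for Slc3a2. In this fit 0 members were called. The part of EC content in these values was not tested beyond it.

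In the input, where all cells of the tumor contribute, 0 of 30 members and 0 (0.0%) of all 13683 genes were called by edgeR, and 0 by DESeq2. The members with an unadjusted p under 0.05 were Slc7a5, Slc7a1, Slc1a4 and Slc38a3, the last at 0.0497 in edgeR (4 of 30, 13.3%, against 1.32% of all genes), each lower with 6-3-A6. Slc1a4 was the member without overlap between the groups (3.33%, against 0.205% of all genes). Log2 fold changes below 0 were found for 24 of 30 members (80.0%, against 48.2% of all genes), with a median of -0.14 against 0.01.

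The inputs had 159, 156, 76.85, 157 and 157 CPM of Slc7a5 with control IgG and 89.5, 92.7, 63.2, 62.5 and 101 CPM with 6-3-A6. Apart from control IgG input 3 at 76.85 CPM, the control values lay close together and above all values with 6-3-A6, and the log2 fold change was -0.81 (SE 0.23, edgeR unadjusted p = 0.00437, adjusted p = 1.0). Its unadjusted p was under 0.05 in each of the 10 fits that left out 1 input.

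Slc1a4 in input was at 47.5, 42.97, 38.1, 48.0 and 39.0 CPM with control IgG and at 37.2, 34.5, 36.5, 24.1 and 30.3 CPM with 6-3-A6. The lowest control value, 38.1 CPM, stood just above the highest with 6-3-A6, 37.2 CPM, and the log2 fold change was -0.42 (SE 0.17, edgeR unadjusted p = 0.0303). Slc7a1 was at 154.5, 142, 103, 180.0 and 164 CPM against 105, 116, 78.9, 137 and 107 CPM (log2 fold change -0.48, edgeR unadjusted p = 0.0274). The control value of replicate 3 was again the one within the range of 6-3-A6. Slc7a11 in input ranged from 19.98 to 56.6 CPM with control IgG and from 13.9 to 42.6 CPM with 6-3-A6 (log2 fold change -0.47, edgeR unadjusted p = 0.194).

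**Figure D5:**
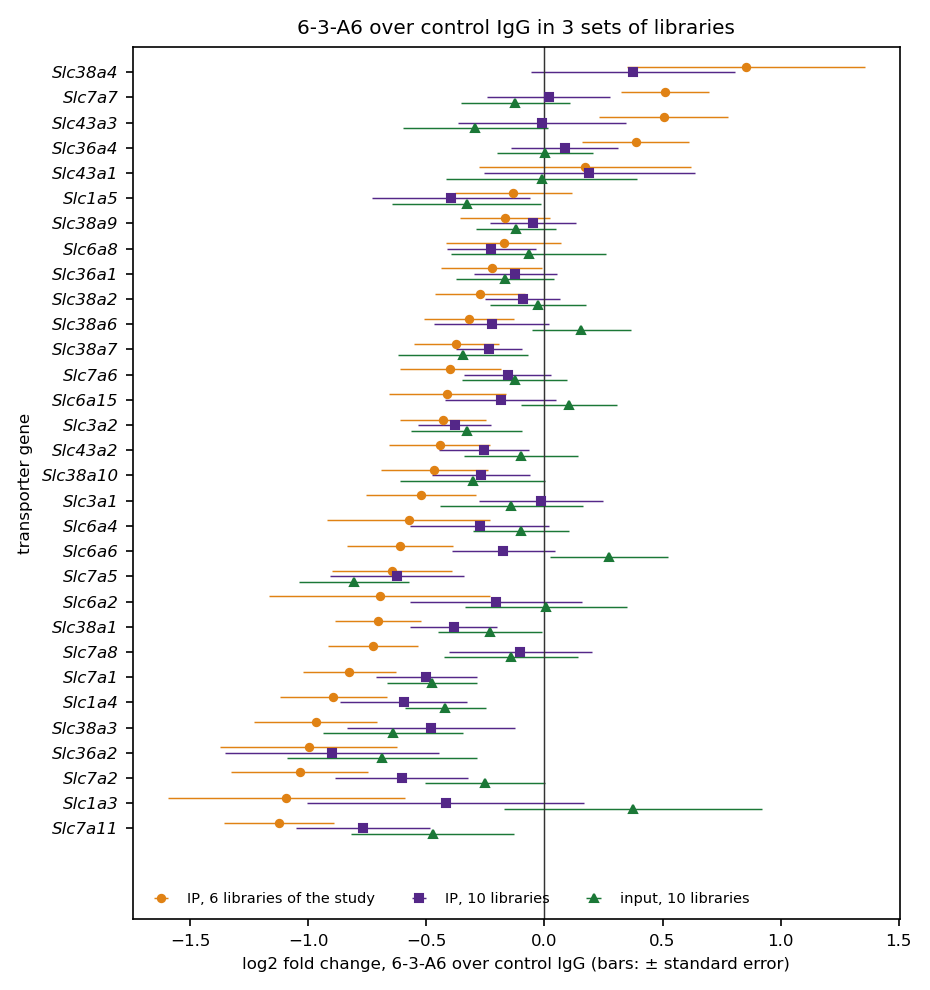
Log2 fold change of 6-3-A6 over control IgG with bars of 1 standard error, in the 6 IP libraries of the study (orange circles), all 10 IP libraries (purple squares) and the 10 inputs (green triangles). In Slc7a11, Slc7a1, Slc1a4, Slc7a5 and Slc3a2 all 3 points lie below 0, while Slc7a7 and Slc43a3 are above 0 in the study's libraries and near 0 over all 10 IPs.

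The difference of IP against input between both treatments was tested as an interaction. Neither a member nor any of the 14488 genes was called (0.0%) by edgeR, 0 members were called by DESeq2, and 0 of 31 members had an unadjusted p under 0.05 (0.863% of all genes did). The members' values lay between -0.80 and 0.27 with a median of -0.06. For Slc7a1 the interaction was -0.03 (SE 0.29), and for Slc7a11 it was -0.29 (SE 0.47), so that differences between the fractions within these errors could not be detected.

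The partners of these carriers in amino acid metabolism were counted in 7 lists, whose counts in IP against input stand beside 19.8% of all genes called higher and 21.4% called lower. In IP against input, 6 of 20 genes of glutamine, glycine, serine and proline metabolism were higher and 0 lower, among them Prodh, the first enzyme of proline breakdown (log2 fold change 1.24, edgeR adjusted p = 7.57e-05), Glud1, glutamate dehydrogenase (0.64), and Glul, glutamine synthetase (0.56). Of 19 aminoacyl-tRNA synthetases 7 were higher and 1, Qars (-0.45), was lower, with Wars, which charges tryptophan, at 1.04. Of 12 genes of arginine and nitric oxide metabolism 4 were higher and 2 lower, with the endothelial nitric oxide synthase Nos3 at 5.09 (edgeR adjusted p = 8.61e-09), Nos2 at 2.12, and the dimethylarginine hydrolase Ddah1 at 1.31, while the polyamine genes Sms (-0.50) and Odc1 (-0.41) were lower.

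Of 22 tested genes of the Atf4 response, 6 were higher in IP, with Stc2 at 2.83, and 4 were lower, with Nupr1 at -0.96, Ddit3 at -0.91 and Cebpb at -0.79 (log2 fold changes). Lysosomal sensing and mTORC1 genes were higher in 6 of 26 and lower in 2 (Lamtor1, an anchor of the complex at the lysosome, at -0.64 and Bmt2 at -0.52), and glutathione and cystine genes were higher in 3 of 10, led by Nfe2l2 at 0.56, and lower in 1, Ggt5 at -0.70. Of 14 tested amino acid carriers outside the 7 families, 4 were lower (Slc15a4 at -0.68, Slc16a10 at -0.64, Ctns at -0.60 and Slc66a1 at -0.52), and the mitochondrial carrier Slc25a13 was higher at 0.49. Their median was -0.45.

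With 6-3-A6 in the study's 6 IP libraries, 3 of 13 genes of arginine and nitric oxide metabolism were higher, Nos3 at 1.35, Nos2 at 1.13 and Ddah1 at 0.86, and 0 were lower, where 2.57% of all genes were called higher. These 3 genes were also higher in IP than in input, and EC markers were higher in the same 6-3-A6 libraries, whose part in these values was not tested. The arginine carrier Slc7a1 was lower. Of 22 Atf4 response genes, Stc2 (1.46) and Ddit4 (1.38) were higher and Vldlr (-0.83) was lower. Stc2 and Ddit4 were also higher in IP than in input (2.83 and 0.84), and the part of EC content in them was not tested. Of the 22 genes, 17 had values below 0 (54.9% of all genes), with a median of -0.44. For the aminoacyl-tRNA synthetases, the glutathione and cystine genes, the mTORC1 genes, the glutamine, glycine, serine and proline genes and the carriers outside the families, 0 were called by edgeR. At an unadjusted p under 0.05 these 5 lists had 3 of 19, 2 of 10, 2 of 26, 3 of 20 and 2 of 14 genes, where 19.5% of all genes had one. In all 10 IPs and in input, 0 genes of these 7 lists were called by edgeR. There, 19 and 18 of 22 Atf4 response genes had values below 0, against 48.3% and 48.2% of all genes, with medians of -0.31 and -0.45. An unadjusted p under 0.05 was found for 2 and 5 of them, against 2.15% and 1.32% of all genes. No gene of the other lists had an unadjusted p under 0.05 in all 10 IPs. In input, 1 of 19 aminoacyl-tRNA synthetases and 1 of 10 glutathione and cystine genes had one, against 1.32% of all genes. The same was so for 2 of 20 glutamine, glycine, serine and proline genes. It was so for 0 of 27 mTORC1 genes, 0 of 11 arginine and nitric oxide genes and 0 of 14 carriers outside the families.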

How the data were processed

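RNA of input and IP from 10 tumors was sequenced as single reads of 100 bp. Per the labels and the study's methods, the authors aligned reads with STAR 2.7.4a and counted them with featureCounts (1.5.2 and 2.0.1 are named), and the raw counts of 20 libraries were deposited. Gene spans include introns, and the strand setting is not given in the sources used here. Coordinates of the count table are GRCm39, whereas the methods name mm10. A second table holds the signal of 6 IP libraries, which is the counts divided by DESeq2 size factors by the authors. It was used only to identify the libraries the study kept: in genes with counts, 100% of its values equaled the counts of the same-named library divided by 1 constant (relative tolerance 1e-06). Its columns of the authors' comparison (fold changes and p-values) were not used.

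Members were chosen by symbol. They and the 17 gene lists (10 of cell type markers, 7 of amino acid transport, sensing and metabolism) were chosen with earlier results of these data known. Every gene was tested with edgeR 4.0.16 (TMM, filterByExpr, quasi-likelihood F test, Benjamini-Hochberg over all genes, threshold 0.05) in R 4.3.3. IP against input used 20 libraries with treatment as a term. For 6-3-A6 against control IgG, the 6 IPs kept by the study after its principal component analysis, all 10 IPs and the 10 inputs were fitted without covariates. Over all 10 IPs and in the 10 inputs, p-values of 6-3-A6 against control IgG measure the spread between these tumors. For IP against input and for the interaction, the 20 libraries were taken as independent, although input and IP share a tumor. Those p-values mix the spread between and within tumors, whereas the fit with the tumor as a block compares libraries of the same tumor. In the 6 IPs kept by the study, p-values measure the spread of libraries chosen by their values. SE is the standard error of a log2 fold change, and CPM used TMM factors. Named were all called members, the heavy chains, the tested members of systems L, y+, y+L, xc- and ASC and of Slc38, and at most 3 called genes per list and direction. Some other members that passed the filter (Slc1a3, Slc36a2 and Slc36a4), some members without a test and Slc66a1 were named after their values were seen. Promoters came from RefSeq. The steps were tested on simulated data. DESeq2 1.42.0 and limma 3.58.1 served as alternatives.

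Input and IP of a tumor came from the same homogenate, so that the tumor can serve as a block. The deviations of both libraries from their group means correlated at 0.05 to 0.73 with control IgG and at -0.06 to 0.53 with 6-3-A6.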

Additional observations from a re-analysis of the deposited data

Results flagged for a closer look

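In 120 groups of 5 libraries (30 transporters, 4 groups), 12 had a highest or lowest library that stood far from the others for the width of the group (Dixon's test at the 95% level). About 1 in 20 groups is flagged by chance. Slc7a5 was at 76.85 CPM in control IgG input 3, where the other 4 inputs had 155.6 to 159.1 CPM, and at 92.56 CPM in 6-3-A6 IP 4, where the others had 48.28 to 60.59 CPM. Slc7a1 was at 65.43 CPM in control IgG IP 3 (others 118.5 to 134.6 CPM). These 3 values belong to genes that had unadjusted p values under 0.05 between 6-3-A6 and control IgG.

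Of the 12, 3 fell on 6-3-A6 input 5, with Slc1a5 at 68.04 CPM (others 20.35 to 31.41), Slc6a4 at 13.24 CPM (others 22.59 to 24.21) and Slc43a3 at 18.48 CPM (others 6.247 to 9.353). The library 6-3-A6 input 4, which had the lowest TMM factor, had 1232 CPM of Slc6a6 (others 463.8 to 570.0) and 35.48 CPM of Slc38a10 (others 121.5 to 139.3). Control IgG IP 4, the IP with the lowest EC score among the control IgG IPs, was highest in Slc6a4 with 14.25 CPM (others 5.63 to 6.643) and in Slc6a15 with 16.58 CPM (others 8.092 to 9.874). Slc38a10 was at 181.6 CPM in control IgG IP 2 (others 113.4 to 129.9), and Slc36a1 at 42.41 CPM in control IgG input 5 (others 34.53 to 36.41). The cause of these values was not tested.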

How the results depend on the processing

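For IP against input, 20 of 30 members were called, and DESeq2 size factors in edgeR gave 19 and the tumor as a block 24. DESeq2 called 21 of 50 (42.0%, against 33.5% of all genes) and edgeR with no filter on low counts 17 of 59 (28.8% against 17.9%), 3 of them in each fit without a test in the filtered one. Fits on part of the tumors called fewer members. These were 10 in the control IgG tumors (33.3%, against 15.8% of all genes) and 9 in the 6-3-A6 tumors (29.0% against 18.2%, 6 of them lower). In the 6 tumors of the study's IP libraries, 11 were called (35.5% against 24.35%). Without the tumor 6-3-A6 4, chosen after seeing the data, 17 were called, and Slc7a1, Slc7a2 and Slc38a9 were lost. Leaving out 1 library gave 16 to 21. DESeq2 did not call Slc7a5 and Slc7a2. Without the filter, edgeR did not call Slc7a5, Slc7a8, Slc43a2, Slc7a1, Slc7a2 and Slc38a9. Slc38a10 turned sign at values near 0, to 0.02227 with DESeq2, 0.006211 with its size factors, 0.04936 without the filter, 0.03054 with the tumor block and 0.01674 in the 6-3-A6 tumors, and lay between -0.0978 and 0.04445 without 1 library. Slc1a5 lay between -0.08095 and 0.28.

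In the study's 6 IP libraries, 2 members were called, against 7 with DESeq2, 6 of 57 without the filter (10.5%, against 5.44% of all genes), 2 with DESeq2 size factors and 0 with the EC score as a covariate. Without control IgG IP 4 or 6-3-A6 IP 1, 3 or 4 it was 0, and 0 to 2 over the 6 fits that left out a library. With the covariate, which cannot be told apart from the treatment in these libraries, the log2 fold change turned to -1.47 for Slc43a1, 0.75 for Slc7a6, -0.19 for Slc7a7, 0.91 for Slc6a8, 0.70 for Slc6a2, 1.55 for Slc6a4, 0.90 for Slc6a15 and -0.82 for Slc43a3. Without 1 library, Slc43a1 lay between -0.42 and 0.495, Slc6a8 between -0.37 and 0.11 and Slc1a5 between -0.44 and 0.0654. Over all 10 IPs, in input and in the interaction, 0 members were called under every alternative run. Over all 10 IPs, Slc43a3 (-0.01) became 0.002561 with DESeq2 and 0.003943 without the filter, with -0.17 to 0.22 without 1 library, and Slc7a7 (0.02) became -0.02823 with the replicate block and -0.21 with the covariate, with -0.08991 to 0.20 without 1 library. In input, the values of Slc7a11, Slc7a1, Slc7a5, Slc7a2, Slc1a4, Slc3a2 and Slc38a3 kept their sign under the alternatives run. Of all genes in the study's 6 IP libraries, 360 were called higher and 286 lower, against 656 and 530 with DESeq2, 733 and 726 without the filter and 0 with the covariate. Of all genes in IP against input, 2695 were called higher and 2902 lower, against 1378 and 785 in the control IgG tumors, 1354 and 1153 in the 6-3-A6 tumors and 1741 and 1606 in the 6 tumors. In input, 24 of 30 members were below 0 (median -0.14), and with DESeq2 size factors the median was -0.13. Over the 58 members with counts, filtered or not, it was -0.03 in edgeR and -0.002903 in DESeq2, where 29 were below and 29 above 0. DESeq2 size factors moved the median of all genes by under 0.1 in each comparison. The cause of these changes was not tested.

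With the replicate number as a block, 0 members were called over all 10 IPs (median log2 fold change -0.23) and 0 in input (-0.20). Libraries of equal number in control IgG and 6-3-A6 share only that number, and their deviations correlated at -0.32 to 0.38. No such block was fitted in the study's 6 libraries, whose kept control IgG and 6-3-A6 IPs share a single replicate number, 4. Control IgG and 6-3-A6 tumors came from different mice, so that equal numbers do not make pairs. Depth limits the 31 members without a test of IP against input, which had at most 21 counts in any library and of which 4 were called by DESeq2 or without the filter.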
